A study of Mus musculus with 13 samples.

Results

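Annexins bind membranes when calcium rises, and S100 proteins are small calcium sensors that dock onto annexins and other targets. The genes described here are 10 of these: the annexins Anxa1, Anxa2, Anxa3, Anxa4 and Anxa5, and the S100 genes S100a1, S100a4, S100a6, S100a10 and S100a11. They were chosen by name, with earlier results of these data known. Each was followed through bulk RNA-seq of mouse brain, where its symbol had a row among 55401 genes. All 10 passed the filter on low counts, which kept 14985 genes.

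The data came from the cuprizone model, in which a copper chelator in the chow kills oligodendrocytes and the brain then loses myelin. There were 13 libraries, each from 1 brain hemisphere of a male C57BL/6J mouse perfused with PBS, aged 6 to 8 weeks when the diets began according to the labels. CTL mice (n = 5) ate control diet for 6 weeks, CPZ mice (n = 4) ate diet with 0.3% cuprizone for 4 weeks, and RCV mice (n = 4) ate the same cuprizone diet for 4 weeks and then control diet for 2 weeks. CPZ brains were thus taken at 4 weeks and the others at 6 weeks, so the time on study and the diet cannot be told apart in the contrasts with CPZ. Libraries held 4605100 to 8197289 estimated counts.

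Annexins share a conserved core that holds calcium ions against phosphatidylserine on a membrane, and they take part in membrane repair, vesicle traffic and the clearance of dying cells. S100 proteins work as dimers, and several of them grip the free end of an annexin: S100A10 pairs with annexin A2 and S100A11 with annexin A1 and A2. In the brain, S100B is used as a marker of astrocytes, and annexins and S100 proteins of myeloid cells are known from inflamed tissue.

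In CPZ, 8 of the 10 genes rose against CTL and none fell. The largest rise was in Anxa3, at 5.50-fold, followed by S100a4 at 3.58-fold, Anxa4 at 2.74-fold, S100a11 at 2.35-fold, S100a6 at 2.23-fold and Anxa2 at 2.02-fold. Anxa5 rose 1.38-fold and S100a1 1.25-fold, and Anxa1 and S100a10 did not pass the test. After 2 weeks of recovery no member passed the test against CTL. Lower than in CPZ were 5 of the 10, all among the 8, beside 5.13% of all genes. The 8 were picked by their rise in the same CPZ libraries, which favours a fall from CPZ to RCV in advance. In bulk tissue, a change in the number of cells of a type and a change in RNA per cell cannot be told apart.

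The members were chosen with earlier results of these data known, so their comparison with all genes is a description and not independent evidence. Of the genes tested, 7.66% rose between CTL and CPZ, and 8 of the 10 members did. Their median log2 fold change was 1.09, beside -0.02 for all genes tested. The libraries of both groups did not overlap in 7 members, beside 13.1% of all genes. S100a4 reached the count cutoff of 1.49 CPM (counts scaled to library size) in no CTL library, 3 CPZ libraries and 1 RCV library, so it entered the test through the groups where it was high. Without it, 7 of 9 members rose and 6 did not overlap.

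**Figure D1:**
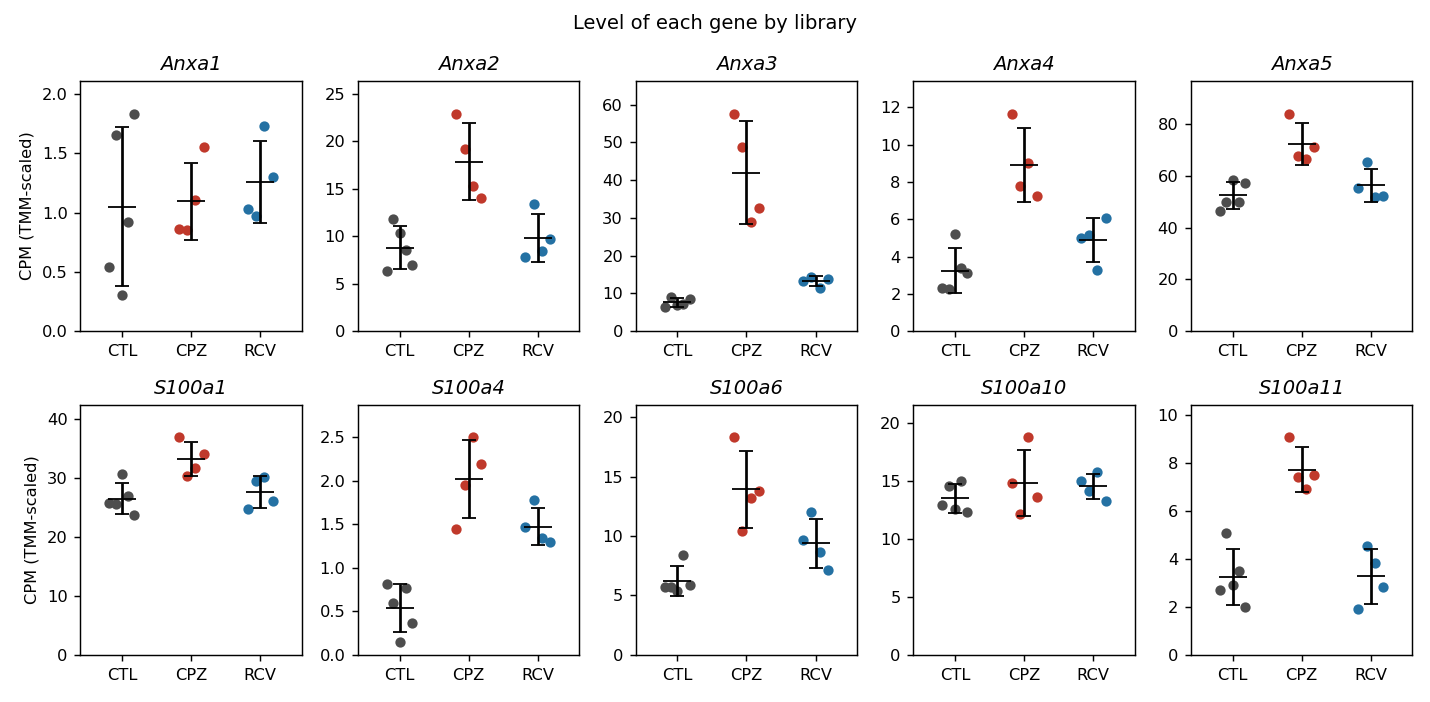
Level of each gene by library, in CPM after TMM scaling, for 5 CTL, 4 CPZ and 4 RCV libraries; points are libraries, the bar is the mean and the error bar the SD. Anxa3 lay between 28.9 and 57.6 in CPZ and at or below 9.15 in CTL, while Anxa1 and S100a10 overlapped in all groups.

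Genes were ranked by TPM, which is scaled to transcript length as well as library size. In CTL, S100a1 (107 TPM ± 9.55, SD, n = 5) and Anxa5 (84.3 ± 14.4) were the most abundant, and their libraries overlapped. S100a10 stood below them at 53.3 ± 4.90. S100a6 (26.5 ± 3.17), S100a11 (19.6 ± 6.91), Anxa2 (14.6 ± 3.25) and Anxa3 (13.8 ± 2.94) followed, and each overlapped its neighbour in this order. Anxa4 (4.70 ± 1.98), S100a4 (4.02 ± 1.36) and Anxa1 (1.69 ± 1.23) were lowest and also overlapped one another in order.

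The order shifted in CPZ mainly through Anxa3. It reached 67.6 TPM ± 22.5 (SD, n = 4), beside S100a6 at 68.1 ± 16.8, S100a10 at 58.5 ± 11.2 and S100a11 at 46.7 ± 5.63. S100a1 (133 ± 10.4) and Anxa5 (104 ± 18.7) again had the highest means, and each gene down to S100a11 overlapped its neighbour in the order. Summed over the 10 genes, TPM was 290 to 367 in CTL, 488 to 635 in CPZ and 348 to 414 in RCV. Of the difference of 205 TPM between the CPZ and CTL means, Anxa3 gave 26.3%, S100a6 20.3%, S100a11 13.2% and S100a1 12.6%. In RCV the levels ran from 111 TPM for S100a1 and 80.0 for Anxa5 over 57.5 for S100a10, 45.6 for S100a6, 20.0 for S100a11, 19.9 for Anxa3 and 16.4 for Anxa2 to 9.85 for S100a4, 5.88 for Anxa4 and 2.07 for Anxa1.

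Of the 16 S100 genes of the lists, 14 were placed on the genome. Of these, 11 lie on mouse chromosome 3 in a stretch of 3050 kb, among them the 5 members, and 3 lie elsewhere (S100b, S100g and S100z). The 5 annexins are on 5 chromosomes. The letters before the transcribed start were read from RefSeq sequences of GRCm38.p6 for 8 of the 10 genes. They were searched on both strands, 250 bases upstream, for the AP-1 letters TGANTCA, which 6.75% of 32851 such windows hold. Anxa2 and S100a11 had them, 95 bases before the RefSeq start of Anxa2 and 136 and 38 bases before that of S100a11. These starts lie 63 and 8 bases past the end of the stretches shown, which stop where the GENCODE gene begins, so the capitals stand 32 bases from the end in Anxa2 and 128 and 30 in S100a11. Both also had the GC box GGGCGG (32.7% of windows), and Anxa1, Anxa2 and S100a4 had TATAAA (12.4%), which in Anxa2 lies past the end of the stretch shown. GAGGAAGT (2.44%) and TGACGTCA (1.55%) were in none of the 8. Shown are Anxa2 and S100a11, and for contrast S100a6, a riser with no such match, 5' to 3' up to the base before the annotated gene, with the AP-1 letters in capitals.
Anxa2, GRCm38.p6, chr9:69453433-69453619, + strand: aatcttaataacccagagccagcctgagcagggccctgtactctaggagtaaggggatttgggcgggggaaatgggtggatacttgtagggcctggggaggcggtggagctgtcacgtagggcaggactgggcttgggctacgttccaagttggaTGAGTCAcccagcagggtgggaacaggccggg
S100a11, GRCm38.p6, chr3:93520246-93520487, + strand: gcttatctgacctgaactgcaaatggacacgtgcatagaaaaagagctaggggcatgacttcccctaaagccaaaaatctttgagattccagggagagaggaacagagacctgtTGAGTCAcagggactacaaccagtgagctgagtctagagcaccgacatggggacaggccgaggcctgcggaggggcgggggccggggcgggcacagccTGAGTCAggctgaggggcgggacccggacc
S100a6, GRCm38.p6, chr3:90612644-90612881, + strand: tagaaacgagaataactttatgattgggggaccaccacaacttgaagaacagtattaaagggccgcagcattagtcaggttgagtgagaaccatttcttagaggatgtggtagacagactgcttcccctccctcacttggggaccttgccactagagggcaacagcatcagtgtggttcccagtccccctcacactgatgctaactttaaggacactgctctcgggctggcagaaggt

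Annexin A3 binds membranes in a calcium-dependent way, and in the mouse brain its transcript is known mainly from microglia. Anxa3 (chr5:96793339-96845966, GRCm38) stood at 6.52, 9.15, 6.92, 7.19 and 8.44 CPM in the CTL libraries, at 57.6, 48.9, 28.9 and 32.5 in CPZ, and at 13.3, 14.4, 11.5 and 13.9 in RCV. The groups did not overlap, with CPZ highest and CTL lowest. The log2 fold change of CPZ against CTL was 2.46 (SE 0.19, adjusted p = 1.17e-06), and that of CPZ against RCV was 1.65 (SE 0.20, adjusted p = 0.000299). RCV against CTL gave 0.80 (SE 0.22, adjusted p = 0.202), which did not pass the test in edgeR, but did in DESeq2 (adjusted p = 0.0363) and when only RCV and CTL were fitted (adjusted p = 0.0196). Of the 3643 exon bases of Anxa3, 112 are shared with Gm42603 on the same strand.

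Annexin A2 is the annexin that S100A10 holds at the plasma membrane, where the pair binds plasminogen and its activators. Anxa2 (chr9:69453620-69491795) measured 6.39, 11.9, 10.3, 8.56 and 6.97 CPM in CTL, 22.9, 19.2, 15.3 and 14.1 in CPZ, and 7.77, 13.4, 8.47 and 9.76 in RCV. Every CPZ library lay above every CTL and RCV library, and RCV overlapped CTL. It rose by a log2 fold change of 1.01 (SE 0.20, adjusted p = 0.00296) in CPZ against CTL and was higher in CPZ than in RCV by 0.85 (SE 0.22, adjusted p = 0.0250). The second call was lost in 7 alternatives, 5 of them without CPZ replicate 1 or 2 or RCV replicate 1, 3 or 4 (adjusted p = 0.0532 to 0.0931). Of its 3731 exon bases, 98 lie across from the antisense gene Gm16144.

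Annexin A4 assembles into trimers on membranes and is best known from secretory epithelia. Anxa4 (chr6:86736840-86793584) was at 2.31, 2.25, 5.23, 3.36 and 3.12 CPM in CTL, 11.7, 7.78, 9.02 and 7.23 in CPZ and 4.98, 5.18, 3.27 and 6.07 in RCV. CPZ did not overlap the other groups, and RCV overlapped CTL. The change was 1.45 (SE 0.24, adjusted p = 0.000609) against CTL and 0.87 (SE 0.25, adjusted p = 0.0478) against RCV, and the latter was lost in 13 alternatives. It fell short without CTL replicate 4 or 5, CPZ replicate 1, 2 or 3, or RCV replicate 1, 2 or 3 (adjusted p = 0.0518 to 0.172).

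Annexin A5 binds phosphatidylserine exposed on dying cells and is used as a stain for them. Anxa5 (chr3:36448923-36475894) had 46.6, 49.8, 58.6, 50.2 and 57.4 CPM in CTL, 84.1, 67.6, 66.7 and 71.3 in CPZ, and 55.6, 65.6, 52.0 and 52.5 in RCV. The CPZ libraries were all above the rest, by a narrow margin over RCV replicate 2. The gene rose by 0.47 (SE 0.092, adjusted p = 0.00263) against CTL and was 0.36 (SE 0.098, adjusted p = 0.0370) above RCV. On the TPM scale the difference from CTL was 0.30 to 0.31 and did not pass the test, with adjusted p = 0.224 to 0.331 in 3 such fits, and the call against RCV was lost in 11 alternatives. These included each fit without CPZ replicate 1, 2 or 4 or RCV replicate 1, 3 or 4 (adjusted p = 0.0526 to 0.126).

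Annexin A1 is a glucocorticoid-induced protein that acts on formyl peptide receptors to limit inflammation. Anxa1 (chr19:20373428-20390944) was near the detection limit, with 2 to 11 counts in CTL libraries, 6 to 12 in CPZ and 6 to 9 in RCV. Its log2 fold changes were 0.09 (SE 0.44) in CPZ and 0.27 (SE 0.45) in RCV against CTL, and a difference was not detectable at this depth (adjusted p = 0.942 and 0.992). The formyl peptide receptor genes Fpr1 and Fpr2 had 0 to 2 counts per library and Fpr3 had 0, which allows up to 3 counts in a library.

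**Figure D2:**
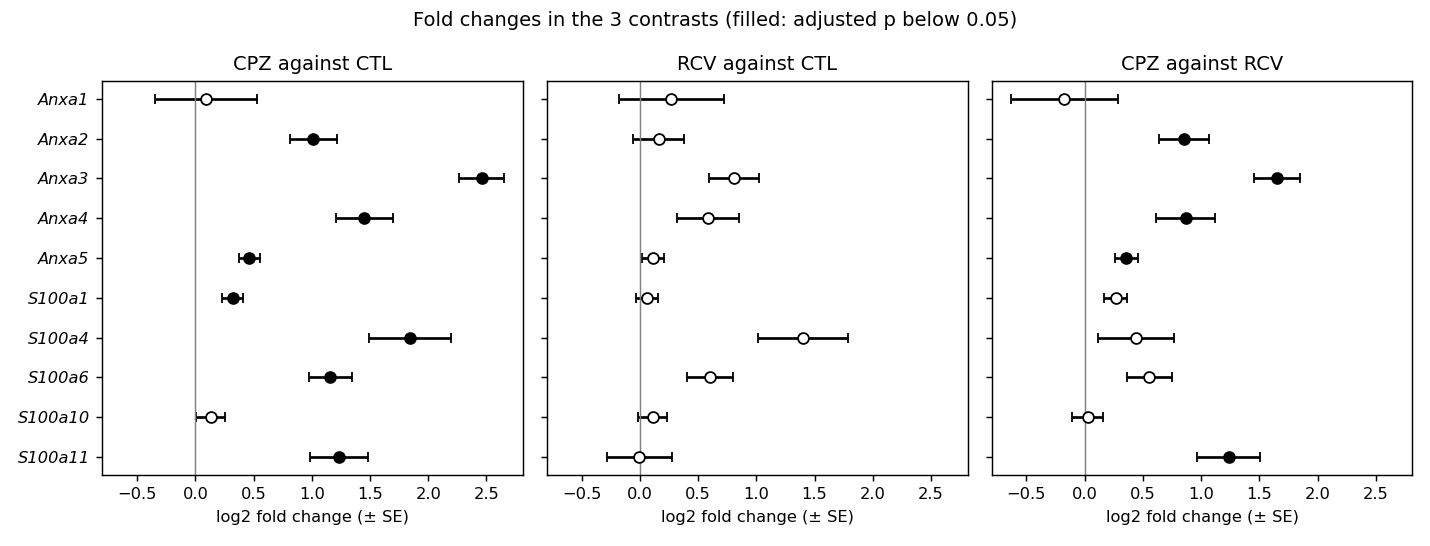
Log2 fold change of each gene (x axis, ± SE) in the 3 contrasts between the groups; filled points passed an adjusted p of 0.05. In CPZ against CTL 8 points are filled, in RCV against CTL 0, and in CPZ against RCV 5.

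S100A4, also called metastasin or fibroblast-specific protein, binds non-muscle myosin heavy chain and is found in motile cells. S100a4 (chr3:90603771-90606045) had 6, 4, 1.45, 5 and 2 estimated counts in CTL, 10, 16, 18 and 17 in CPZ and 10, 11, 7 and 6 in RCV. In CPM this was at most 0.816 in CTL, 1.44 to 2.50 in CPZ and 1.30 to 1.78 in RCV, so that both cuprizone-fed groups lay above CTL. The change was 1.84 (SE 0.35, adjusted p = 0.00202) in CPZ against CTL. In RCV it was 1.40 (SE 0.38, adjusted p = 0.207), which missed the threshold in edgeR and passed it in limma on log2(TPM + 1) and log2(TPM + 0.1), with adjusted p = 0.0416 and 0.0480. CPZ against RCV gave 0.44 (SE 0.33, adjusted p = 0.526) and did not pass. Of its 584 exon bases, 302 are shared with Gm42674 on the same strand, so its reads may have been split with that gene.

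S100A6, or calcyclin, is a small S100 protein found in fibroblasts, glia and growing cells. S100a6 (chr3:90612882-90624181) was at 5.71, 5.70, 5.38, 8.41 and 5.87 CPM in CTL, 18.3, 10.5, 13.2 and 13.8 in CPZ, and 9.68, 12.0, 8.66 and 7.16 in RCV. CPZ lay above CTL throughout, while RCV overlapped both. It rose by 1.16 (SE 0.19, adjusted p = 0.000425) against CTL, and the values of 0.60 (SE 0.20, adjusted p = 0.378) for RCV against CTL and 0.55 (SE 0.19, adjusted p = 0.107) for CPZ against RCV did not pass.

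S100A11 takes part in membrane repair and docks onto annexins A1 and A2. S100a11 (chr3:93520488-93526287) measured 2.72, 5.10, 2.92, 3.52 and 2.02 CPM in CTL, 9.08, 7.41, 6.94 and 7.49 in CPZ, and 1.91, 4.54, 3.85 and 2.82 in RCV. The CPZ libraries stood apart from all others, and CTL and RCV overlapped. The change was 1.23 (SE 0.25, adjusted p = 0.00287) against CTL and 1.24 (SE 0.27, adjusted p = 0.00949) against RCV. Its pseudogene S100a11-ps held 1 count in all libraries together.

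S100A1 is known for calcium handling in heart muscle and is also made by neurons. S100a1 (chr3:90511034-90514392) had 25.7, 25.7, 30.6, 26.9 and 23.7 CPM in CTL, 36.9, 30.3, 31.6 and 34.1 in CPZ, and 24.8, 29.5, 30.2 and 26.0 in RCV. The highest CTL library was above the lowest CPZ library. The rise of 0.32 (SE 0.090, adjusted p = 0.0292) was lost in 7 alternatives, among them those without CTL replicate 1, 2 or 5 or CPZ replicate 1 or 4 (adjusted p = 0.0618 to 0.111). CPZ and RCV did not overlap, with a difference of 0.27 (SE 0.096, adjusted p = 0.125).

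S100A10, or p11, has lost the ability to bind calcium and is held in a fixed complex with annexin A2. S100a10 (chr3:93555080-93564643) was at 12.9, 14.6, 12.6, 15.0 and 12.3 CPM in CTL, 14.8, 12.2, 18.7 and 13.6 in CPZ and 15.0, 14.1, 15.8 and 13.2 in RCV. The 3 groups overlapped, with log2 fold changes of 0.13 (SE 0.12, adjusted p = 0.609) in CPZ and 0.11 (SE 0.13, adjusted p = 0.984) in RCV against CTL.

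After recovery, 0 of the 10 genes passed the edgeR test against CTL, beside 0.36% of all genes that were higher in RCV. At an unadjusted p below 0.05 there were 4 (Anxa3, Anxa4, S100a4 and S100a6), beside 6.2% of all genes, while DESeq2 called 1 (Anxa3) and limma-voom 0. The libraries did not overlap for 2, Anxa3 and S100a4, beside 2.9% of all genes. Without S100a4, which entered the test through the groups where it was high, 3 of 9 had an unadjusted p below 0.05 and 1 of 9 did not overlap. Between CPZ and RCV, 5 members were higher in CPZ, namely Anxa2, Anxa3, Anxa4, Anxa5 and S100a11, beside 5.13% of all genes, and 6 did not overlap, beside 13.2%. This contrast shares its CPZ libraries with CPZ against CTL, and its RCV libraries with RCV against CTL. Of the 5 calls, those of Anxa3 and S100a11 held in every alternative run.

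The position of each RCV mouse between the CTL mean (0) and the CPZ mean (1), on the log2-CPM scale, was given for the 8 genes that rose in CPZ. It was 0.754 ± 0.112 (SD, n = 4) for S100a4, 0.505 ± 0.269 for S100a6, 0.405 ± 0.252 for Anxa4 and 0.330 ± 0.0578 for Anxa3. For Anxa5 it was 0.221 ± 0.336, for S100a1 0.184 ± 0.423, for Anxa2 0.161 ± 0.336 and for S100a11 0.00449 ± 0.406. The 4 mice lay close together for Anxa3, from 0.248 to 0.381, and far apart for S100a11, from -0.514 to 0.409. These shares are a description and were not tested. The 8 genes were picked by their rise in the same CPZ libraries that set the scale. S100a4, with the highest share, had 1.45 to 6 estimated counts in CTL libraries. The SD is over the RCV mice and leaves out the uncertainty of the CTL and CPZ means. On the log2(TPM + 0.1) scale the share was -0.195 for Anxa5, 0.243 for Anxa3 and 0.282 for Anxa4. When a library was left out, the Anxa4 share ran from 0.327 to 0.524 and that of S100a6 from 0.395 to 0.61. Without RCV replicate 2 the share was 0.0593 for Anxa5, 0.00636 for Anxa2, 0.0833 for S100a1 and -0.13 for S100a11. The Anxa2 share was also 0.0659, 0.246, 0.096 and 0.261 without CTL replicate 1, 2 or 5 or RCV replicate 1. The Anxa5 share was 0.144 without CTL replicate 1. The S100a1 share was also 0.298, 0.0718, 0.339 and 0.0472 without CTL replicate 3 or 5 or RCV replicate 1 or 3, and that of S100a11 ran from -0.13 to 0.177 over the fits without a library.

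**Figure D3:**
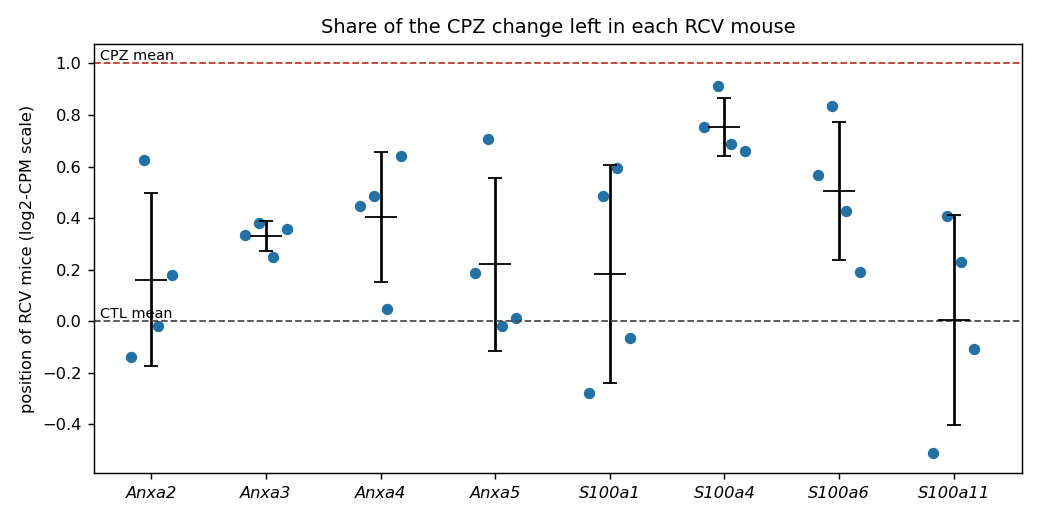
Position of the 4 RCV mice (points) on the scale from the CTL mean at 0 to the CPZ mean at 1, for the 8 genes that rose in CPZ; bars are mean ± SD. S100a4 lies highest, between 0.661 and 0.911, and S100a11 straddles the CTL mean.

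Annexin A2 and S100A10 form one complex, so the transcripts of this pair were set against each other within each library. The S100a10 to Anxa2 ratio of TPM was 3.76 ± 0.700 (SD, n = 5) in CTL, 2.11 ± 0.621 (n = 4) in CPZ and 3.64 ± 0.983 (n = 4) in RCV. On the log2 scale with 0.1 added, CPZ was lower than CTL by a difference of -0.86, with no overlap, and the exact two-sided permutation test gave p = 0.0159, the smallest this design allows. Adjusted over the 6 ratio tests it was 0.0952, above the threshold. With 6 tests this contrast could not have passed alone, however far apart its groups lay. The difference between CPZ and RCV was -0.80 (exact permutation p = 0.0571, adjusted 0.171). For S100a11 to Anxa1, log2 ratios were 3.67 ± 1.10 in CTL, 4.15 ± 0.77 in CPZ and 3.19 ± 0.79 in RCV, and no contrast passed (exact permutation, adjusted p = 0.286 to 0.667). That ratio rests on 2 to 12 Anxa1 counts per library.

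**Figure D4:**
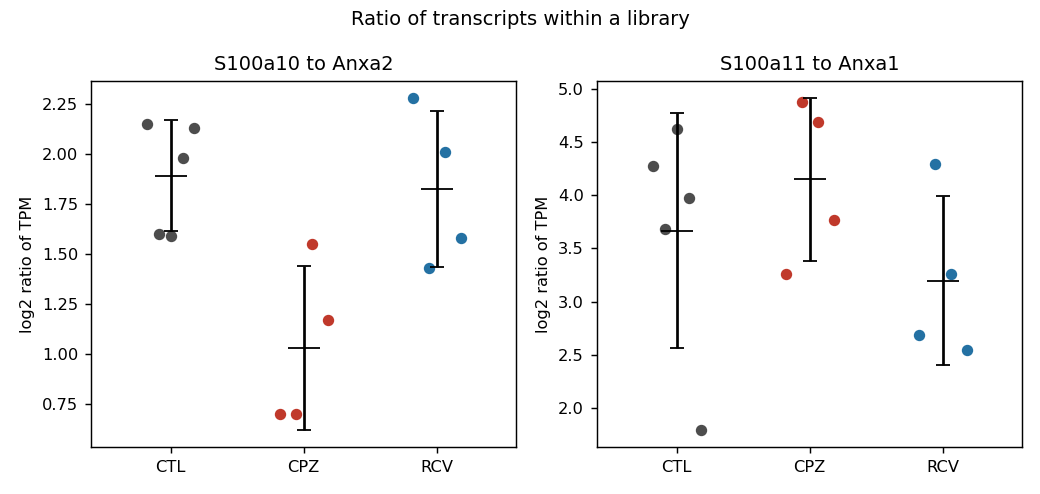
Log2 ratio of TPM within each library (0.1 added to both) for S100a10 to Anxa2 and for S100a11 to Anxa1; points are libraries and bars mean ± SD. For S100a10 to Anxa2 the 4 CPZ libraries lie below the 5 CTL libraries, and for S100a11 to Anxa1 the groups overlap.

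Few further genes of both families passed the test. Of 7 other annexins, 3 were tested, Anxa6, Anxa7 and Anxa11, and 0 passed in any contrast in edgeR, DESeq2 or limma-voom, with 0 at an unadjusted p below 0.05. Their log2 fold changes in CPZ against CTL were -0.06, -0.00 and 0.03. Of 11 other S100 genes, 3 were tested and 1 rose in CPZ against CTL, beside 7.66% of all genes. S100a16 rose by 0.29 (SE 0.085, adjusted p = 0.0385), while S100a13 gave 0.29 (adjusted p = 0.346) and S100b -0.02 (adjusted p = 0.907). In RCV against CTL 0 were called, with S100b at an unadjusted p below 0.05 in edgeR, beside 6.2% of all genes. S100b was at 85.1 to 101 CPM in CTL, 87.9 to 95.3 in CPZ and 101 to 111 in RCV. Between CPZ and RCV 0 were called, with S100a16 and S100b at an unadjusted p below 0.05, beside 2862 of 14985 genes. The call of S100a16 was lost in 13 of 24 alternatives (adjusted p = 0.0522 to 0.26). Of these, 8 left out a library, namely CTL replicate 1, 2, 4 or 5, CPZ replicate 1, 2 or 4, or RCV replicate 1. S100a8 and S100a9, the neutrophil S100 genes, had 0 to 3 counts except in CTL replicate 2 (25 and 37) and RCV replicate 1 (35 and 23).

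Of 18 binding partners and receptors, a list also chosen with earlier results known, 13 were tested. In CPZ against CTL 4 rose, beside 7.66% of all genes, and in CPZ against RCV 3 were higher in CPZ, beside 5.13%. In RCV against CTL edgeR called 0, with 4 at an unadjusted p below 0.05 (Ahnak, Plau, Plaur and Ano6), beside 6.2% of all genes. In that contrast DESeq2 called 1 (Plau) and limma-voom 0. Plaur reached the count cutoff in no CTL library, 4 CPZ libraries and 1 RCV library, so it entered the test through the group where it was high. Without it, 3 of 12 rose in CPZ against CTL and 2 of 12 were higher in CPZ than in RCV. In RCV against CTL this left Ahnak, Plau and Ano6 at an unadjusted p below 0.05. Plau, the urokinase that activates plasminogen, was at 1.50 to 4.00 CPM in CTL, 10.7 to 24.3 in CPZ and 4.84 to 8.75 in RCV, and rose by 2.80 (SE 0.30, adjusted p = 1.3e-05). Plaur, its receptor, stood at 0.14 to 0.764 CPM in CTL and at 1.94 to 5.71 in CPZ, a change of 2.89 (SE 0.40, adjusted p = 0.000104). Plgrkt, a plasminogen receptor, rose by 0.64 (SE 0.14, adjusted p = 0.00543), and Myh9, the myosin heavy chain that S100A4 binds, by 0.51 (SE 0.090, adjusted p = 0.000953). Plau, Plaur and Myh9 were also higher in CPZ than in RCV, by 1.32, 1.66 and 0.49 (adjusted p = 0.0104, 0.0135 and 0.00472). All 3 of these calls were lost on the log2(TPM + 0.1) scale and on log2(TPM + 1) without a filter. Plaur also missed the threshold without CPZ replicate 2 (adjusted p = 0.0623) and with a score of fibroblast markers as a covariate. Plau missed it when the replicate number was fitted as a block, and Myh9 on log2(TPM + 1). Plg itself had 0 to 1 counts.

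**Figure D5:**
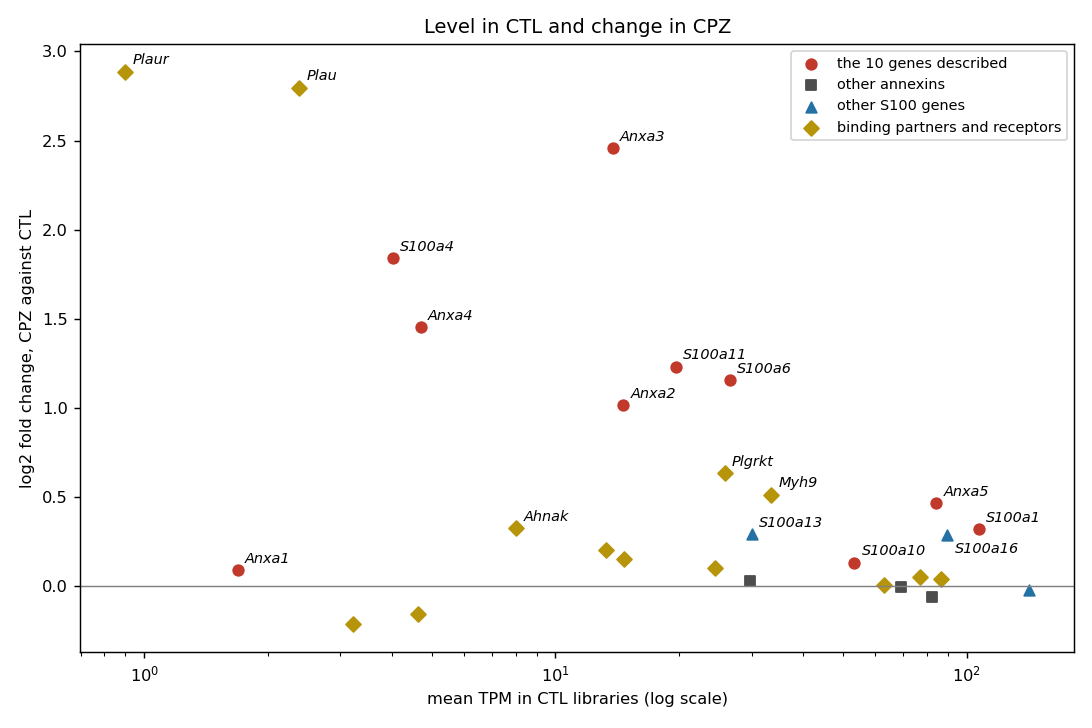
Log2 fold change of CPZ against CTL (y axis) by mean TPM in CTL (x axis, log scale) for the 10 genes, the other annexins, the other S100 genes and the binding partners and receptors. Anxa3, at 13.8 TPM, changed by 2.46, and the 3 other annexins lie near 0.

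Likeness of profile was taken as the root mean square difference over the 13 libraries of log2-CPM centred on the CTL mean, and the nearest 3 genes of each member were listed. For Anxa3 they included Runx1 (0.121) and Laptm5 (0.136), and for Anxa2 they were Npc2 (0.158), H1f2 (0.160) and H2-T23 (0.179). Anxa5 was nearest to Lamp1 (0.0850), Cflar (0.0963) and Dpy19l4 (0.0990), and Anxa4 to Irgm1 (0.250), Mcm2 (0.275) and Sting1 (0.276). For S100a6 they were Apoe (0.208), Pnpla7 (0.219) and Irgm2 (0.223), for S100a11 Anxa2 (0.288), Il6ra (0.290) and Ltbr (0.292), and for S100a4 Stag3 (0.354), Gbp3 (0.369) and Ggta1 (0.391). S100a1 was nearest to Inppl1 (0.0869), Iqgap1 (0.0902) and Rps2 (0.0920), S100a10 to Pus10 (0.112), Pcdhb12 (0.119) and Dnajc8 (0.119), and Anxa1 to Zfp708 (0.320), Ubb-ps (0.335) and Gm20371 (0.337). The scatter of low counts enters these values as well as the size of a change, so they are not to be compared between members. The largest were those of S100a4 (1.45 to 18 estimated counts per library) and Anxa1 (2 to 12).

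Cell markers moved in the same contrasts. All 15 microglia markers rose in CPZ, by log2 fold changes of 1.72 to 3.72, and their summed TPM was 563 to 690 in CTL, 2540 to 5570 in CPZ and 961 to 1430 in RCV. Astrocyte markers rose for 5 of 10 (1930 to 2320, 2710 to 3260 and 2430 to 2700 TPM), and 12 of 13 mature oligodendrocyte markers fell (4420 to 8080, 1820 to 2990 and 5720 to 9610 TPM). Fibroblast markers, beside which S100a4, S100a6 and Anxa2 are often found, did not pass for any of 10 in CPZ against CTL. They summed to 69.6 to 147, 67.8 to 147 and 89.9 to 145 TPM. Between CPZ and RCV, 1 of these 10 was lower in CPZ, beside 1.88% of all genes. In CPZ against CTL 1 of 11 endothelial and mural markers fell. None of 8 choroid plexus, 5 ependymal, 6 excitatory and 6 inhibitory neuron markers passed there. The choroid plexus sum was 755 to 5170 TPM in CTL, 1150 to 4370 in CPZ and 17.5 to 2690 in RCV. Its lowest values were 20.3 and 17.5 TPM, in RCV replicates 3 and 4, so the RCV mice differed in this tissue. Blood monocyte and neutrophil markers summed to 0.14 to 2.56 TPM in CPZ, with Ngp, Camp, Ltf, Retnlg and Elane at 0, beside 0.43 to 8.05 in CTL and 0.42 to 21.6 in RCV. Of 8 T and natural killer cell markers 1 was tested and did not pass, and they summed to 14.5 to 20.2 TPM in CPZ. The part of these cell types in the results was not tested.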

How the data were processed

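Bulk RNA-seq of 13 mouse brain hemispheres was analysed. The authors prepared libraries with the Kapa mRNA HyperPrep kit and processed reads with the RNASequest pipeline. The submitters' processing notes name STAR, RSEM and mm10. The authors deposited, per gene, estimated counts not scaled to library size and TPM values scaled to length and depth. Of the member values, 2.31% were not whole, and all counts were rounded for testing. The identifiers of 92 spike-ins were left out. The labels' protocols and the paper's methods give fewer mice per group than the 13 libraries, whereas a legend in the paper gives the same 13. The paper and the labels also differ in the age of the mice. RCV libraries were grouped by their treatment label, since their titles give only "Veh" and a number.

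Genes were filtered with filterByExpr, scaled by TMM and tested with edgeR 4.0.16 (robust quasi-likelihood F test, all libraries in one fit, Benjamini-Hochberg over 14985 genes, threshold 0.05). Log2-CPM used a prior count of 2. For the ratios, an exact two-sided permutation test was used (scipy 1.17.1). Alternatives used DESeq2 1.42.0 and limma 3.58.1 in R 4.3.3. Over 22 pairs of libraries within groups, chi-square per gene was 4.23 to 16.3, so none was a duplicate. Positions are those of GENCODE M21 (GRCm38), matched by identifier and version.

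The members and lists were chosen with earlier results of these data known. Named were all 10 members, the genes of the family and partner lists called in any contrast (up to 3 rises and 3 falls per list), and the 3 genes nearest in profile to each member. One of the genes nearest to Anxa3 is not reported here. Genes named to account for members of those lists that did not pass were chosen after their values were seen, as were S100a8 and S100a9. Each p-value sets a difference between groups against the spread between mice of this experiment.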

Additional observations from a re-analysis of the deposited data

Results flagged for a closer look

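Of 36 groups of libraries examined, 1 held a library far from the others, and chance alone sets apart about 1 in 20 such groups. In CTL, S100a6 had a log2-CPM of 3.12 in replicate 4, and of 2.51 to 2.63 in the other 4 libraries, so the gap to the nearest library was 0.807 of the whole range. Without that library S100a6 still rose in CPZ against CTL.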

How the results depend on the processing

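In CPZ against CTL the 8 members called stayed within 7 to 8, and the 13 genes called over the members and lists within 11 to 13, when each library was left out in turn, and no other alternative moved these counts by over 1.5 times. In RCV against CTL, where 0 were called, the count over members and lists was 2 with DESeq2 and 1 with log2(TPM + 1), log2(TPM + 0.1) or only the 2 groups in the fit, and 0 to 1 when a library was left out. The members alone gave 1 in each of these 4 settings. In CPZ against RCV, 8 calls over members and lists became 5 and 3 on the TPM scales, 2 without a TPM filter, 4 with a fibroblast score as covariate and 4 to 9 when a library was left out. The 5 member calls there became 3, 3, 2 and 2 in the same settings, 3 with the replicate block, and 2 to 5 when a library was left out, with 2 without CPZ replicate 1, CPZ replicate 2, RCV replicate 1 or RCV replicate 3 and 3 without RCV replicate 4. The cause was not tested.

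The labels do not say whether mice with the same replicate number shared a litter or day, and this was not tested. Over 12 pairs of libraries that share a number, deviations correlated at -0.199 to 0.136. Of 12 libraries, 1 correlated best with its own number. With the replicate block, 7 members were called in CPZ against CTL, 0 in RCV against CTL and 3 in CPZ against RCV, and the count over members and lists in CPZ against RCV was 5.

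Reversals were limited to differences that did not pass the test. Anxa5 in RCV against CTL was -0.059 with log2(TPM + 1), with and without the TPM filter, and -0.060 with log2(TPM + 0.1). Anxa1 in CPZ against RCV was 0.26, 0.33 and 0.26 on the TPM scales, 0.072 with the covariate and -0.39 to 0.012 when a library was left out, and in CPZ against CTL it was -0.14 to 0.20 when a library was left out and 0.54 and 0.82 on the log2(TPM + 1) and log2(TPM + 0.1) scales, beside 0.09 in edgeR. S100a11 in RCV against CTL was 0.022 on the TPM scales, 0.023 with the covariate and -0.22 to 0.21 when a library was left out. Anxa2 in RCV against CTL was -0.036 to 0.29, and S100a10 in CPZ against RCV was -0.0023 with limma-voom and -0.098 to 0.11. The log2 ratio of S100a10 to Anxa2 in RCV against CTL was -0.215 to 0.066. The log2 ratio of S100a11 to Anxa1 in CPZ against RCV was 1.47 with TMM-scaled CPM, with an exact permutation p = 0.0286. Anxa1 and S100a4 could not be tested with at least 10 counts in every library. With only RCV and CTL fitted these genes also failed the filter, and 8 members were tested. When each library was left out in turn, Anxa1 was tested in 11 of 13 fits.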
